A study of Mus musculus with 6 samples.

Results

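The last step of untreated embryonic stem cell (ESC) differentiation, from day 4 to day 5, was followed on 2 of the 6 arrays of the series, with the untreated day 3 array used to tell which genes had already begun to change. Genes were taken as members when they changed at least 2-fold between the untreated day 4 and day 5 arrays and had changed by less than 1.414-fold between day 3 and day 4, on a scale of log2(intensity + 50). Of 9997 genes with usable signal, among 18193 genes with a probe set of 1 gene symbol, 171 were such late risers and 84 such late fallers. The cells were A2.miR200c mouse ESCs, a line carrying a doxycycline (Dox)-inducible cassette for the microRNAs miR-200c and miR-141, differentiated as embryoid bodies (EBs), which are floating aggregates of differentiating cells, in Petri dishes at 15000 cells per mL in medium with 10% fetal calf serum. The 3 untreated arrays, of days 3, 4 and 5, received no Dox, and the other 3 arrays, with Dox at 500 ng/mL first given on day 2 and, for the later collections, again on day 4, entered here only in the choice of probe sets and in the filter on low signal. The untreated cells carry the same cassette but were given no Dox, and all arrays came from this 1 line. Each day was measured on 1 array, so no value below has a replicate error, no difference was tested, and the sizes given compare these arrays. The day 3 to day 4 change (early step) and the day 4 to day 5 change (late step) share the day 4 array, so a day 4 value that is off by chance moves them in opposite directions.

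In the mouse embryo the epiblast keeps pluripotency under the transcription factors Pou5f1 (Oct4), Nanog and Sox2, while Nodal signalling and its inhibitors pattern the tissue until cells leave through the primitive streak as mesoderm and endoderm. Cells that leave the epiblast lose epithelial junctions and take on mesenchymal traits, a process called epithelial to mesenchymal transition (EMT), in which repressors of the Snail family take part. Mesoderm bearing the receptor Kdr (Flk1) then gives rise to blood and endothelium under factors such as Etv2, Tal1, Gata2, Fli1 and Runx1, and the first red cells make embryonic globins. EBs pass through comparable stages in culture.

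At the 2-fold limit 294 genes were higher on day 5 than on day 4, which is 2.94% of the 9997 genes, and 200 genes were lower, which is 2.0%, so that 4.94% of genes passed the limit in one direction or the other. The 171 late risers made up 1.71% of all genes and the 84 late fallers 0.84%. The remaining 2-fold changes belonged to genes that had already moved by at least 1.414-fold the day before: 106 rose and 77 fell in both steps, while 17 turned from falling to rising and 39 from rising to falling. In the early step 191 genes (1.91%) were at least 2-fold higher on day 4 than on day 3 and 146 (1.46%) at least 2-fold lower. Over all genes the median late step was -0.002 on the log2 scale, a value that the normalisation of the deposited arrays to each other holds near 0.

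**Figure D1:**
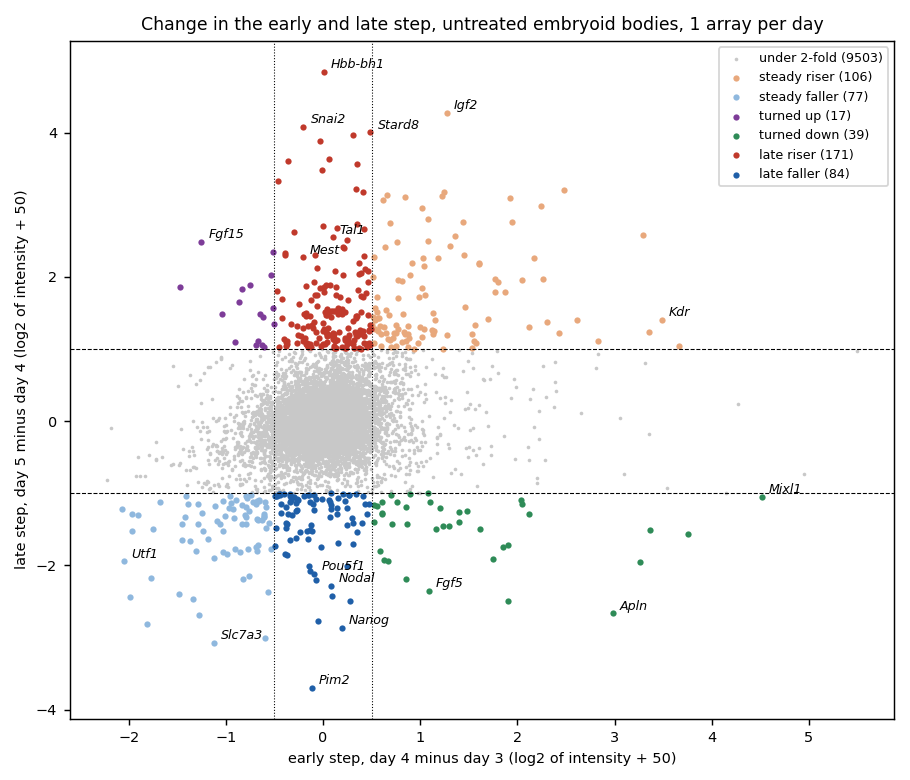
Early step (day 4 minus day 3, horizontal) against late step (day 5 minus day 4, vertical) for 9997 genes in untreated EBs, both as differences of log2(intensity + 50), with 1 array per day. The 171 late risers (red) and 84 late fallers (dark blue) lie in the central column beyond the dashed 2-fold lines, with Hbb-bh1 highest at 4.85 and Pim2 lowest at -3.696, and the axes share the day 4 array.

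The levels below are of the values that chose the members. On this scale a gene has to start above an intensity of 50 to fall 2-fold, whereas a gene at 0 can rise 2-fold, so low starting levels were open to risers alone. The median late riser had an intensity of 72.4 on day 3, 85.7 on day 4 and 429.8 on day 5, against a background of 36.7, the level under which 95% of 78 chemosensory receptor genes lay. On both days 3 and 4, 46 of the 171 were below that background, so the size of their rise depends on the constant of 50 added to the intensity. The median late faller had an intensity of 833 on day 3, 898 on day 4 and 299 on day 5, and 5 of the 84 were below background on day 5. Changes of at least 4-fold were seen for 34 late risers and 11 late fallers, whereas 59 risers and 38 fallers had late steps of less than 1.2 in size and lay near the limit. Just inside the 2-fold limit were Pcolce, with a late step of 1.0, and Plxnd1 with 1.01, and just outside it Calcrl with 0.998 and Creg1 with 0.996. For the fallers Ly6e (-1.002) and Ap1m2 (-1.01) were just inside, and Pls1 (-0.997) and Pou4f1 (-0.99) just outside. The limit on the early step admitted Amer3, whose early step was 0.49, Stard8 with 0.49, Epcam with -0.498 and Chek2 with -0.49, and it excluded Rhou with 0.504, Dhcr7 with -0.502, Thnsl2 with 0.52 and Sfn with 0.52.

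Below, values given for a gene are its intensities on days 3, 4 and 5 in that order, and a number after them in parentheses is its late step on the log2 scale. A gene list is described by its members above the filter, and since a member that is low on most days passes the filter only through the day on which it is high, the median over every member with a probe set is given beside that over the members above the filter. Counts of list genes at least 2-fold higher or lower carry the same limit, and stand against 2.94% and 2.0% of all 9997 genes.

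Transcription factors of blood and endothelium were among the late risers. Of 32 listed genes with a probe set 18 passed the filter, of which 11 were at least 2-fold higher on day 5, 8 of them as late risers, and none was 2-fold lower. The median late step was 1.28 over these 18 and 0.44 over all 32, against -0.002 over all genes. Tal1, the basic helix-loop-helix factor required for all blood lineages, had an intensity of 20.02 on day 3, 24.9 on day 4 and 389 on day 5, a late step of 2.55. It was below background on the first 2 of the 3 days and well above it on the last. Cbfa2t3, a corepressor found in Tal1 complexes, went from 22.9 on day 4 to 418 on day 5 after 16.03 on day 3 (2.68). Fli1, an Ets factor of endothelial and megakaryocyte cells, measured 14.9 on day 3, 25.6 on day 4 and 349 on day 5 (2.399). For these 3 factors the day 5 array alone stood above background. Runx1, needed for definitive blood stem cells, measured 13.9, 30.8 and 171 on the 3 days (1.46), and Gata2, which acts in early blood progenitors, measured 37.7, 55.1 and 207 (1.29). The other Gata2 probe set measured 7.17, 32.96 and 277.8 (1.98), with an early step of 0.537 that is past the limit for a late riser. Sox7, a SoxF factor of early endothelium and endoderm, was already above background and went from 103 and 161 to 756 (1.94). The red cell and megakaryocyte factor Nfe2 reached 86.99 from 6.50 (1.28), and Ikzf1 (Ikaros), a lymphoid and blood regulator, reached 127 from 33.4 (1.08), both modest day 5 levels. Other members of the list had moved earlier: Ets1 (115, 231 and 1525 on days 3, 4 and 5), Zfpm1 (31.8, 159.99 and 1198), the Gata factor partner known as Friend of Gata, and Lmo2 (71.5, 191 and 741), the bridging protein of the Tal1 complex, rose in both steps. Etv2, which stands upstream of Tal1 in mesoderm, measured 149, 374 and 398, so its level on days 4 and 5 was nearly the same (0.08) after an early step of 1.09. In bulk EB RNA, more cells of a type and more RNA per cell cannot be told apart, here and below.

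The embryonic globin gene Hbb-bh1, which encodes the beta-like chain of the first red cells, had the largest late step of all 9997 genes. Its intensity was 7.12 on day 3, 7.32 on day 4 and 1600.4 on day 5, a late step of 4.85. On the first 2 days it lay far below background, so the fold depends on the added constant. Other probe sets for Hbb-bh1 gave late steps of 3.42, from 24.9 to 751, and 4.04, from 10.4 to 946. Among 17 genes of globin, haem and red cell function above the filter, out of 32, 2 (Hbb-bh1 and Nfe2) passed 2-fold upward and none downward, and the median was 0.03 (0.04 over the 32). Slc25a37 (mitoferrin), which imports iron into mitochondria for haem synthesis, measured 423, 419.8 and 696 (0.67), and the blood group gene Rhd measured 82.2, 91.5 and 43.8 (-0.59). Other embryonic globin genes stayed under the filter but passed background on day 5, Hbb-y with 3.69, 2.0 and 46.7 and Hba-x with 26.98, 13.01 and 60.2. The adult alpha-globin gene Hba-a2 measured 105, 114 and 94.7 (-0.18).

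Endothelial receptors and junction proteins rose in part. Of 20 members above the filter, out of 39, 7 were at least 2-fold higher and 1 lower, 4 were late risers, and the median late step was 0.84 (0.29 over the 39). Cdh5 (VE-cadherin), the adhesion protein of endothelial junctions, measured 10.8 on day 3, 29.6 on day 4 and 281 on day 5 (2.05). Ramp2, the partner of the adrenomedullin receptor, measured 86.3, 127 and 378 (1.27), and Plxnd1, the semaphorin receptor of vessels, reached 103 on day 5 from 25.6 (1.01). The partner of Ramp2, Calcrl, missed the limit at 0.998 with 19.6, 23.5 and 96.8. Among VEGF, PDGF and angiopoietin genes, 9 of 18 above the filter were at least 2-fold higher, none lower, and 2 were late risers, with a median of 0.90 (0.38 over all 28). The late risers were Vegfc, a ligand of lymphatic vessel growth, at 139 on day 3, 175 on day 4 and 671 on day 5 (1.68), and the endothelin receptor Ednrb at 17.4, 13.3 and 190.5 (1.93). Kdr itself had risen a day earlier, with 58.1, 1159.95 and 3158 and steps of 3.48 and then 1.41, and Nrp1, a VEGF co-receptor, rose in both steps with 22.8, 357 and 3701. Of 26 blood cell surface and signalling genes with a probe set 4 passed the filter and none was a late riser (median 0.74, but -0.08 over the 26), and Kit, the receptor of early progenitors, measured 99.5, 169 and 208 (0.24).

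Promoter sequences are shown for members of the blood factor and falling groups that held a motif searched for. They are the 150 bases before a RefSeq start site (mouse build GRCm38.p6), with capitals marking a GATA motif (AGATAA or TGATAA), an Ets motif (CAGGAAG) or an octamer (TTTGCAT) on either strand. The Cbfa2t3 stretch is chr8:122699110-122699259 on the minus strand, with a GATA motif in reverse orientation that begins 118 bases before the start. The Runx1 stretch is chr16:92826075-92826224 on the minus strand, with an Ets motif 125 bases before the start. Nanog, chr6:122707339-122707488 on the plus strand, and Pim2, chrX:7878156-7878305 on the plus strand, each held an octamer, the motif read by Pou factors such as Pou5f1, 75 and 123 bases before their starts.
Cbfa2t3: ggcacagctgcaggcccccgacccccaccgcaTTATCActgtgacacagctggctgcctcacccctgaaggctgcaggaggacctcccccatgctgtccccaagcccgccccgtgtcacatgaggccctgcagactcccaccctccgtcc
Runx1: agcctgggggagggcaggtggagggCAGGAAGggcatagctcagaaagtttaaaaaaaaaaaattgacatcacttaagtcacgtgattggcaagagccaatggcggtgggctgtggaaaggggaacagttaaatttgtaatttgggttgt
Nanog: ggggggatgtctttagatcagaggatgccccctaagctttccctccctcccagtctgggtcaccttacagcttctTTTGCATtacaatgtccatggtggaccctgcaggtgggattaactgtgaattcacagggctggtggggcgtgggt
Pim2: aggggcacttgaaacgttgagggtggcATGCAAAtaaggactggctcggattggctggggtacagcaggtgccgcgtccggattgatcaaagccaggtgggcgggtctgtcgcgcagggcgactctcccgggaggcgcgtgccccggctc

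Over the first 250 bases upstream, GATA motifs were held by 10.2% of the 166 promoters of late risers, 7.62% of the 105 promoters of late fallers and 8.47% of the 10455 promoters of all genes above the filter. Ets motifs were held by 13.9%, 11.4% and 9.54% of these promoters, and the E-box CATCTG, which Tal1 complexes can read, by 12.7%, 8.57% and 9.38%. The octamer, which was added after the Nanog sequence had been seen, was held by 4.22% of late riser promoters, 8.57% of late faller promoters (9 of 105) and 3.05% of those of all genes above the filter. Within 150 bases of the start a second Runx1 promoter also held an octamer and 1 of 4 Otx2 promoters a GATA motif and a CATCTG E-box, while those of Tal1, Gata2, Pou5f1 and Nodal, the second ones of Cbfa2t3 and Nanog and the other Otx2 promoters held none of these letters. The shares in all 32851 promoters of the table were 16.6% for GATA, 10.8% for Ets, 14.4% for the E-box and 4.12% for the octamer. Genes with several start sites counted once for each, some start sites of 1 gene share bases, and promoters were found for 124 late risers and 65 late fallers. A match to these letters is a description of the sequence and not a bound site.

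**Figure D2:**
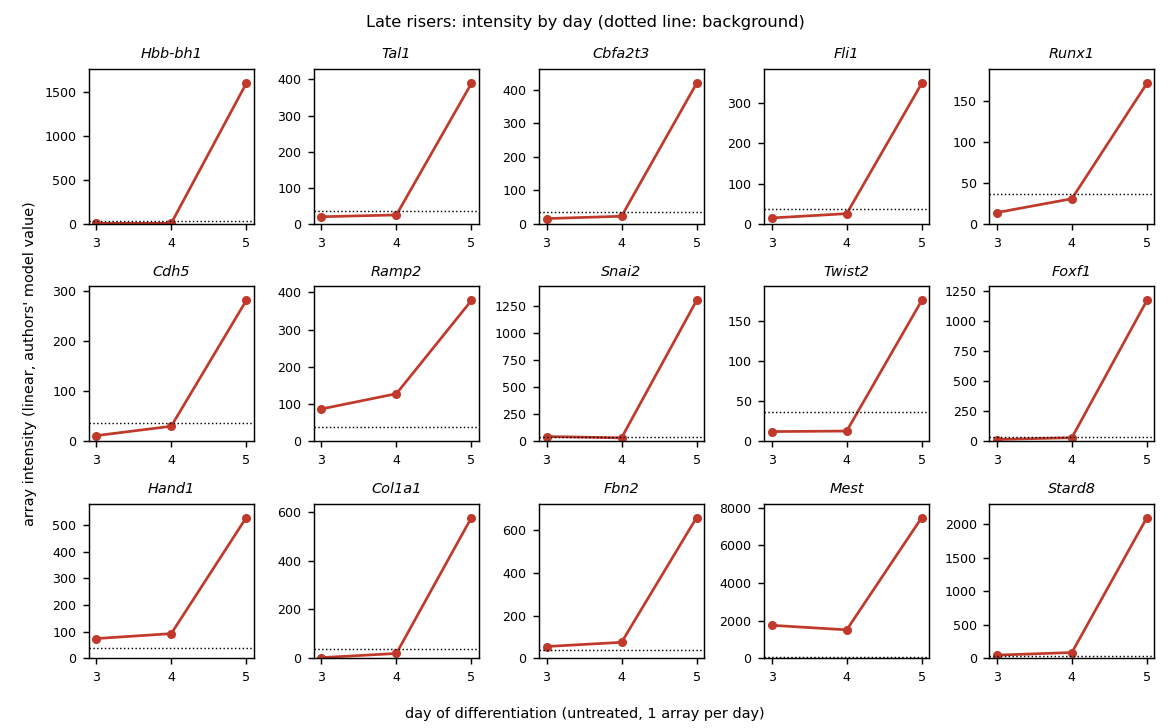
Array intensity (vertical, linear scale starting at 0, each panel with its own range) on days 3, 4 and 5 for 15 late risers in untreated EBs, with 1 array per point and the background of 36.7 as a dotted line. Each gene stays within the 1.414-fold limit from day 3 to day 4 and is higher on day 5, among them Hbb-bh1 at 1600.4, Snai2 at 1304 and Mest at 7483.

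Of the transcription factors of EMT, Snai2 showed the largest late step. Snai2 (Slug), a Snail-family repressor of E-cadherin, had an intensity of 42.1 on day 3, 29.9 on day 4 and 1304 on day 5, a late step of 4.08. Its other probe set went from 13.9 to 357 between days 4 and 5, a late step of 2.67. Its relative Snai1 measured 16.5, 119 and 113, with the rise in the early step (1.35) and no further change in the late one (-0.05). The helix-loop-helix factor Twist2 measured 11.9, 12.5 and 176 (1.85) and the homeobox factor Prrx2 26.1, 29.03 and 143 (1.29). Snai2, Twist2 and Prrx2 were the late risers of 14 EMT factors above the filter, out of 19, of which 3 passed 2-fold upward and 1 downward (median 0.69, or 0.57 over the 19). Zeb1 (131, 256 and 403) and Zeb2 (43.7, 97.6 and 237), repressors that miR-200 microRNAs target, stayed under the limit with late steps of 0.57 and 0.96.

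Mesodermal and cardiac regulators included several late risers. Foxf1, the forkhead factor of lateral plate mesoderm, measured 13 on day 3, 28.1 on day 4 and 1172 on day 5 (3.97), although its other probe set moved from 61.2 to 81, a late step of 0.24. Hand1, a factor of lateral and extraembryonic mesoderm and of the heart, measured 73.7, 92.2 and 528 (2.02), and its other probe set went from 10.04 to 149. With Prrx2 these were the 3 late risers of 24 early mesoderm genes above the filter, of which 10 were at least 2-fold higher and 3 lower, and the median late step was 0.70, but 0.05 over all 36. Of 13 cardiac genes above the filter 8 were at least 2-fold higher and none lower, against 2.94% and 2.0% of all genes. Their median was 1.15, but 0.13 over all 33. The late risers among them were Hand1, the atrial myosin light chains Myl7 (21.1, 37.98 and 181) and Myl4 (17.2, 16.3 and 86.9), with late steps of 1.39 and 1.04, and Smarcd3 (Baf60c), a chromatin remodelling subunit of heart progenitors (23.6, 25.6 and 121, 1.18). Myl4 and Myl7 were at or near background on days 3 and 4. Other heart and mesoderm genes were steady risers, such as Tbx20 with 8.31, 54.3 and 847 and Hand2 with 10.3, 42.6 and 724. Of the cardiac genes, Myl4, Myl7, Smarcd3, Tbx20 and Hand2 reached the filter among the untreated arrays on day 5 alone. The list of streak genes held no late riser. Endoderm genes went both ways, with 6 of 19 members above the filter at least 2-fold higher and 4 lower (median 0.54, or 0.35 over all 25). The late risers of this list were Foxa1, a pioneer factor of endoderm, at 47.04, 84.7 and 270.0 (1.25), and Spink1, a serine protease inhibitor of endoderm and pancreas, at 15.6, 14.2 and 896 (3.88). Cited1, a transcriptional co-activator in the extraembryonic endoderm list, was a late riser too, at 56.01, 65.2 and 199 (1.11).

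Extracellular matrix genes formed another group of late risers. Of 27 mesenchymal structure genes above the filter, out of 36, 13 were at least 2-fold higher and none lower, 7 were late risers, and the median late step was 0.97 (0.69 over the 36). Of 18 collagens and collagen-processing genes, out of 34, 7 were higher and none lower, 4 were late risers, and the median was 0.69 (0.25 over the 34). Col1a1, the main fibrillar collagen chain, measured 2.22 on day 3, 19.3 on day 4 and 577 on day 5 (3.18), and its other probe set went from 16.5 to 249. Its partner chain Col1a2 measured 88.2, 107 and 136 and stayed under the limit (0.24). Fibrillin gene Fbn2, a microfibril protein of embryonic matrix, measured 54.7, 74.5 and 661 (2.51), and fibulin gene Fbln2 15.6, 38.03 and 506 (2.66). Tgfbi, a matrix protein induced by TGF-beta, measured 23.3, 30 and 289.9 (2.09). Hapln1, the link protein that ties hyaluronan to proteoglycans, measured 10.98, 10.9 and 346 (2.701), and Vcan (versican), its proteoglycan partner and its neighbour on the chromosome, 396, 403 and 1238 (1.51). Smaller late steps were those of Mmp2, a matrix protease (284, 261 and 713, 1.29), Postn (periostin), which went from 1.81 to 83.2 (1.36), and the collagen cross-linking enzyme gene Loxl1 (45.5, 24.1 and 109.9, 1.11). The basement membrane was represented by Nid1 (nidogen), at 194 on day 4 and 825 on day 5 (1.84), and Col4a2 at 568, 741 and 1739 (1.18), while Col4a1, its partner chain, was just outside at 0.98. Integrin subunit Itga4, which binds fibronectin and Vcam1, measured 10.8, 8.30 and 203 (2.12). Itga4 and Nid1 were the 2 genes past 2-fold among 18 laminins, integrins and basement membrane genes (median 0.04, or -0.12 over all 27). P4ha2, a collagen prolyl hydroxylase, measured 352, 469.7 and 1000.3 (1.01), and Pcolce, which enhances procollagen cleavage, 114, 165 and 379.8 (1.0). Of the actin genes, Acta2, the smooth muscle actin, measured 326, 427 and 1262 (1.46) and Gsn (gelsolin), which severs filaments, 94.9, 134 and 371 (1.195). They were the 2 members of 29 cytoskeleton genes past 2-fold.

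Signalling genes among the late risers were few in each pathway. In the BMP pathway 10 of 26 genes were at least 2-fold higher and 1 lower (median 0.49, or 0.29 over all 34), 3 of them as late risers: the ligand Bmp5 at 3.74, 21.8 and 301 (2.29) and the target genes Hand1 and Gata2. The ligand Bmp4 and the targets Msx1 and Msx2 had risen in both steps, Bmp4 with 143, 656 and 2386. Of 15 Notch genes 2 were higher and none lower (median -0.25, or -0.004 over all 23). The target gene Hey2, a transcriptional repressor that acts in arterial and cardiac development, was the late riser with 24.1 on day 3, 44.1 on day 4 and 576 on day 5 (2.73). In the Wnt pathway (6 of 29 higher, 3 lower, median -0.08, or -0.001 over all 41) the late risers were Lgr5, the R-spondin receptor, at 10.3, 33.1 and 301 (2.08), and the feedback inhibitor Nkd1 at 39.3, 73.1 and 207 (1.06). The FGF receptor Fgfr2 measured 164, 139 and 468 (1.45). Guidance genes split both ways: Efnb1 (ephrin-B1) at 181, 138 and 1104 (2.62), the netrin receptor Unc5c at 52.01, 67.5 and 574 (2.41), Epha4 at 72.1, 116 and 298 (1.07) and Plxnd1 rose late, while Epha2 at 484, 476 and 107 (-1.74) and the semaphorin Sema3e at 644, 573 and 151 (-1.63) fell late, in a list of 36 with a median of 0.09 (0.05 over all 47). Retinoid-binding Crabp1 measured 43.8, 32.1 and 181 (1.49), and Hoxd1, the late riser of 6 Hox genes above the filter, out of 33, 12.1, 19.6 and 155 (1.56). The late risers among 32 genes of hypoxia and glycolysis were Egln3 (1.08), Pfkp (1.06) and P4ha2, and the list had a median of 0.17 (0.16 over all 35).

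Imprinted growth genes included late risers of high intensity. Of 19 members above the filter, out of 26, 8 were at least 2-fold higher and none lower, 4 as late risers, and the median late step was 0.90 (0.36 over the 26). Mest (Peg1), expressed widely in embryonic mesoderm, measured 1749.7 on day 3, 1507 on day 4 and 7483 on day 5 (2.27), the highest day 5 intensity of the late risers named here. Phlda2, which limits placental growth, measured 1888, 2106 and 6329 (1.56). Igf2r, the receptor that clears Igf2, measured 437, 534 and 1185 (1.08) and Dlk1, a transmembrane Notch-like protein, 60.8, 46.2 and 185 (1.29). Igf2 itself was a steady riser with 138, 404 and 8723, an early step of 1.27 and a late step of 4.27, the second largest late step of all genes. The related ligand Igf1 was a late riser at a low level, 19.7, 25.2 and 105 (1.04).

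Several of the largest late risers belonged to no list of pathway or cell type. Stard8 measured 45.7 on day 3, 84.1 on day 4 and 2102 on day 5 (4.004). Ctla2a, a cysteine protease inhibitor, measured 27.1, 30.6 and 951 (3.63), and the neighbouring, similar gene Ctla2b 27.4, 49.7 and 360.4 (2.04), where specificity of the probes to either gene was not tested. Zfp711, a zinc finger protein, measured 109.95, 74.5 and 1474 (3.61), but its other probe set did not pass background on day 4 or day 5. Capn6, a calpain without protease activity, measured 16.8, 35.3 and 961 (3.57), and its other probe set went from 15.8 to 258. Spin2c, a spindlin-family gene, measured 277, 187 and 2337 (3.33) and Morc4, a Morc-family ATPase, 57.4, 85.7 and 1209 (3.21). On day 4 all of these genes except Spin2c had an intensity under 100. Tdo2, a tryptophan-degrading enzyme, measured 2.84, 2.63 and 540.3 (3.49), but its other probe sets went from 92.8 to 92.6 and from 2.96 to 44.3.

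Genes of the X chromosome were well represented among the largest late risers. Of 340 X-linked genes above the filter 15 were late risers (4.41%), against 155 of 9643 autosomal genes (1.61%), and 5 of the 15 largest late risers and 7 of the 34 with at least 4-fold change were X-linked. Stard8, Zfp711, Capn6, Spin2c and Morc4 were the 5, and Efnb1 and Plac1, a placental gene at 7.93, 27.9 and 285 (2.11), completed the 7. Stard8 and Efnb1 are neighbours in the annotation. The whole chromosome did not move, since the median late step of the 340 genes was 0.002, and 5 X-linked genes were late fallers (1.47%). By autosome the share of late risers ran from 0.209% on chromosome 17, with 1 of 478 genes, to 2.69% on chromosome 8, with 15 of 557. Xist, the RNA that silences an X chromosome, measured 232, 103 and 125 (0.198).

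**Figure D3:**
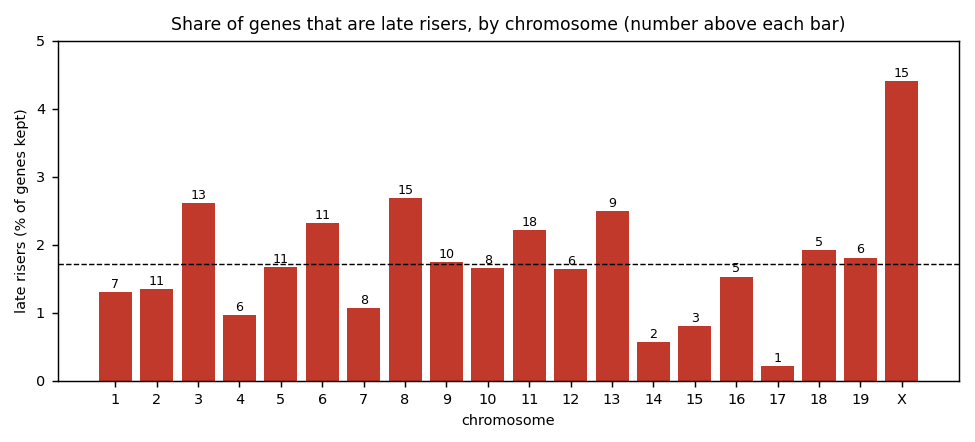
Late risers as a percentage of genes above the filter on each chromosome (bars, from 0), with the number of late risers above each bar and the share of all genes, 1.71%, as a dashed line. The X chromosome has the tallest bar at 4.41% and chromosome 17 the lowest at 0.209%.

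Among the late fallers stood 2 central pluripotency factors. Of 25 core pluripotency genes, all above the filter, 12 were at least 2-fold lower on day 5 and none higher, 4 as late fallers, and the median late step was -0.95. Nanog, the homeobox factor of the epiblast, had an intensity of 2777 on day 3, 3181 on day 4 and 394 on day 5 (-2.86), a 7.28-fold fall on this scale. Pou5f1 measured 4858 on day 3, 4560.0 on day 4 and 1014 on day 5 (-2.12), or 4.33-fold lower. Both were level between days 3 and 4 and remained above background on day 5. Sox2, their partner, was a steady faller with 5581, 2928 and 1119.8, losing signal in both steps (-0.92 and -1.35). Naive ESC genes had a median early step of -0.83 and a median late step of -0.59 over 19 members above the filter (-0.44 for the late step over all 26). In the late step 7 were at least 2-fold lower and 1 higher, and the late fallers were Klf5 (941, 1265 and 590.2, -1.04) and the zinc finger gene Zscan10 (1339, 953 and 437, -1.04). A second Klf5 probe set changed the other way, from 64.7 to 97.7.

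Genes of the primitive ectoderm, the epithelium that forms from the inner cell mass, included the largest fall of all. Of 21 listed genes, all above the filter, 10 were at least 2-fold lower and 1 higher, 4 were late fallers, and the median late step was -0.95. Pim2, a serine/threonine kinase that promotes survival, measured 4718 on day 3, 4351 on day 4 and 289.6 on day 5 (-3.696), the lowest late step of all genes and a 12.96-fold fall. Otx2, the homeobox factor of anterior epiblast, measured 1836 on day 3, 1748 on day 4 and 339.8 on day 5 (-2.21). The adjacent zinc finger genes Zic5 and Zic2 fell alike, Zic5 from 985 to 207 (-2.01) and Zic2 from 1090.5 to 234 (-2.005), after 825 and 1209.8 on day 3. All 4 genes held their signal through day 4 and lost most of it within the following day. Fgf5, the ligand used to mark this tissue, followed another course, with 1265, 2746 and 499 and a peak on day 4.

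Nodal and its inhibitors were lower as well. Nodal, the TGF-beta family ligand of epiblast and streak, measured 2219 on day 3, 2352 on day 4 and 444 on day 5 (-2.28), and its other probe set went from 915 to 128, a late step of -2.44. Lefty2, a Nodal target and inhibitor, measured 2373, 2623 and 1114 (-1.2). Of 19 genes of the pathway above the filter 7 were at least 2-fold lower and 1 higher (median -0.56, or -0.20 over all 22), and of 19 genes of primitive streak and epiblast stem cells 10 were lower and none higher (median -1.05, or -0.76 over all 24). In the second list the late fallers were Nodal, Otx2, Lefty2 and Trh, a hormone precursor gene, at 3607, 4017 and 1208 (-1.69). Cer1, a Nodal antagonist of anterior endoderm, measured 4.26, 913 and 432 and missed the limit at -0.998. Tgif1, a corepressor of Smad signalling, was a late faller with 2393, 2521 and 1128 (-1.13), as was Pmepa1, another Smad inhibitor, with 390.3, 511 and 144 (-1.53).

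**Figure D4:**
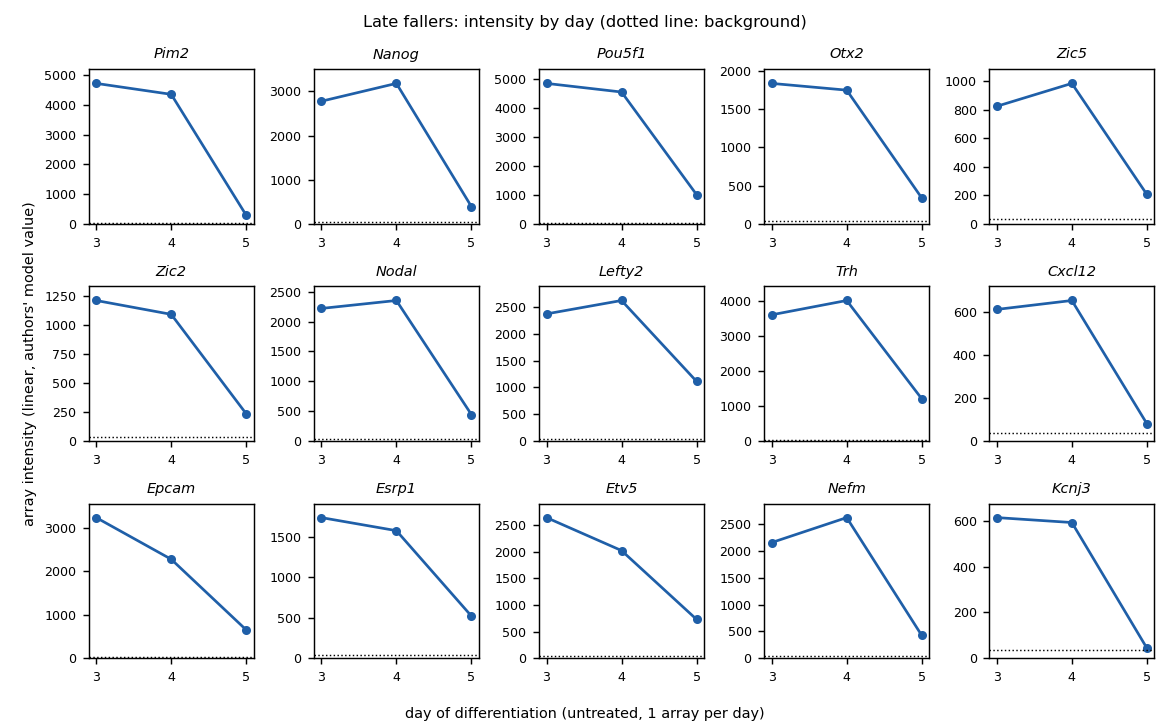
Array intensity (vertical, linear scale starting at 0, each panel with its own range) on days 3, 4 and 5 for 15 late fallers in untreated EBs, with 1 array per point and the background of 36.7 as a dotted line. Each gene holds its level to day 4 within the 1.414-fold limit and is lower on day 5, among them Pim2 at 289.6, Nanog at 394 and Pou5f1 at 1014.

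Most epithelial genes were lower on day 5, in the main by less than 2-fold. Their summed intensity above the filter was nearly the same on days 4 and 5 (34999.8 and 33966.7). The keratin genes Krt8 (767, 2604 and 7013, 1.41) and Krt18 (1755, 2825 and 6278, 1.14) were steady risers. Of 36 members above the filter, out of 42, 30 had a lower value on day 5 than on day 4, 8 passed 2-fold downward and 3 upward, and the median late step was -0.67 (-0.41 over the 42). The late fallers were Epcam, an adhesion protein of epithelia and ESCs, at 3232 on day 3, 2274 on day 4 and 649 on day 5 (-1.73), Esrp1, the epithelial splicing regulator, at 1734, 1573 and 519.6 (-1.51), the membrane protease gene St14 (matriptase) at 311, 287 and 94.4 (-1.23), and the sorting adaptor gene Ap1m2 at 452, 345.5 and 146 (-1.01). A second Epcam probe set was low and nearly level, from 171 to 141. E-cadherin, Cdh1, measured 7232, 7458 and 3963, just under the limit at -0.904, while N-cadherin, Cdh2, had risen in the early step and measured 969, 5238 and 6003 (0.195). Tight junction gene Cldn6 measured 1121, 1072 and 734 (-0.52). One epithelial member went the other way as a late riser, the polarity gene Pard6b at 366, 329 and 993 (1.46), and its other probe set did the same, from 242 to 801.

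The remaining strong late fallers came from several classes. The 2 neurofilament genes Nefm and Nefl, adjacent in the genome and best known from axons, measured 2162, 2629 and 426 (-2.49) and 5249, 4786 and 1097 (-2.08). Kcnj3, a potassium channel subunit, measured 614 on day 3, 592 on day 4 and 43.8 on day 5 (-2.77). Cxcl12, the chemokine that attracts Cxcr4-bearing cells, measured 612, 654 and 80.7 (-2.43), and its other probe set went from 368 to 48.8, while the receptor gene Cxcr4 rose in both steps (26.3, 216 and 964). Ligand and receptor of this pair thus moved in opposite directions. Deptor, an inhibitor of the kinase mTOR, measured 499, 376 and 67.1 (-1.86), and the amino acid transporter gene Slc7a7 2466, 1872 and 485 (-1.84). Etv5, an Ets factor downstream of FGF, measured 2642, 2022 and 729 (-1.41), with 4 of 24 FGF pathway genes at least 2-fold lower, 4 higher and a median of -0.37 (-0.34 over all 27). The receptor gene Erbb3 measured 632, 529 and 149.7 (-1.54). Pmaip1 (Noxa), a proapoptotic target of p53, measured 988, 1235 and 345.1 (-1.702), and was the single 2-fold change of 21 p53 response genes (median -0.03, or -0.01 over all 23).

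**Figure D5:**
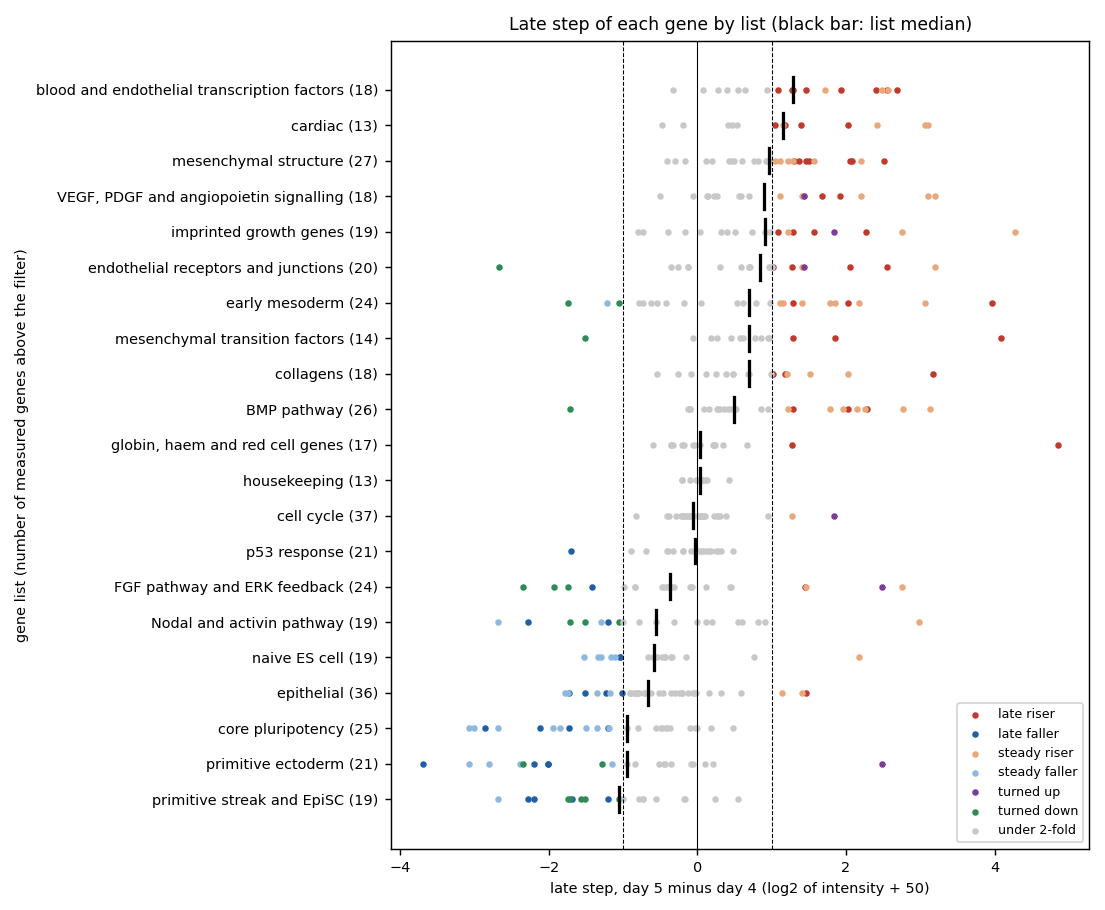
Late step (horizontal, difference of log2(intensity + 50), day 5 minus day 4) of each gene above the filter in 21 lists, coloured by class, with the list median as a black bar and the 2-fold limits dashed. Medians run from 1.28 for blood and endothelial transcription factors to -1.05 for primitive streak and epiblast stem cell genes, with housekeeping genes at 0.03.

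Housekeeping, cell cycle and ATF4 stress response genes had median late steps near 0. None of 13 housekeeping genes passed 2-fold in either direction (median 0.03), and Actb measured 13706, 13159.6 and 13694. Of 37 cell cycle genes 2 were higher and none lower, none of them a late riser or faller (median -0.06, or -0.05 over all 41). Of 29 genes of the ATF4 stress response 1 was higher and 1 lower (median -0.07, as over all 33). Over all genes 2.94% were at least 2-fold higher and 2.0% lower. Of 25 immediate early genes 1 was 2-fold higher and none 2-fold lower, but 18 had a lower value on day 5 (median -0.25, or -0.22 over all 28). In the cytoskeleton list 23 of 29 genes had a higher value on day 5, with a median of 0.28 (0.28 over all 30). Of the 171 late risers 59, and of the 84 late fallers 22, belonged to at least 1 of the 47 lists.

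Markers of other cells that EBs can hold moved with some members (sums are of intensities over every list gene with a probe set, for days 3, 4 and 5). In the extraembryonic endoderm list 6 of 26 genes above the filter were at least 2-fold higher and none lower. They were the late risers Sox7, Col4a2, Spink1 and Cited1 and the steady risers Gata4 (37.2, 93.5 and 268) and Pdgfra (40.3, 591 and 1330). The median over all 35 was 0.16, and the summed intensity was 16003 on day 3, 20761 on day 4 and 30748 on day 5. On day 5, 9 of the 35 were below background, among them the yolk sac genes Afp, Apoa1 and Ttr (10.3, 5.64 and 34.6). The trophoblast list had 3 of 7 higher, Hand1, Plac1 and Cdx2 (23.3, 98.6 and 485), and none lower, with a median of 0.04 over all 15. Its sums were 1291, 4330.3 and 3868, of which Eomes, also a streak gene, made up 769, 3729 and 2141. On day 5, 7 of the 15 were below background, and Elf5, Tpbpa and Ascl2 were so on each day. Tfap2c was above background on each day (110, 146 and 117), and Peg10 passed it on day 5 (21.6, 26.9 and 93.7). The ESCs had been passaged once without feeder fibroblasts before differentiation. In the feeder fibroblast list, which includes Fbln2, Postn, Loxl1 and Cxcl12, 3 of 6 were higher and 1 lower. The median was -0.004 over all 19 and the sums were 2766, 2432 and 2776. On day 5, 12 of the 19 were below background, among them Thy1, Fap and Dcn (28.5, 6.12 and 3.77). Has2 (681, 614 and 1274) and Pdpn (1121, 820 and 482) were above it on each day. The smooth muscle list had 4 of 10 higher and none lower. The 4 were Acta2, Rgs5 (10.7, 180 and 1924), Pdgfrb (34.4, 206 and 1126) and Cald1 (1356, 2285 and 5389). Of the 10, 6 had a higher value on day 5 and 4 a lower one, by less than 2-fold. The lower ones were Cnn1 (311, 252 and 114), Tagln (1414, 2689 and 2397), Itga8 (119, 288 and 207) and Smtn (158, 138 and 127). The median was 0.17 over all 16, the sums were 6829, 10512 and 17808, and Myh11 was below background throughout. The 3 platelet and megakaryocyte genes above the filter out of 19, Fli1, Nfe2 and Zfpm1, were higher. Of these Fli1 and Nfe2 reached the filter among the untreated arrays on day 5 alone. The median over the 19 was -0.02 and the sums were 349, 525 and 1919.5. On day 5, 13 of the 19 were below background, among them Pf4, Gp9 and Itgb3. Itga2b (63.9, 62.6 and 50.9) and Gata1 (51.8, 56.1 and 56.2) were above it on each day. The germ cell list had 1 of 12 higher and 4 lower, with a median of -0.47 (-0.225 over all 16) and sums of 6812, 4643 and 5204, of which Ifitm1, the gene that was higher, made up 717, 1329.7 and 3131. Cd68 was the macrophage gene above the filter (99.1, 77.6 and 65.9), and 16 of 17 macrophage genes with a probe set were below background on day 5. The part of these cells in the late changes was not tested.

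Other probe sets of the same genes that passed background, which did not choose the members, moved largely the same way on the same arrays. The brightest other probe set that passed background on day 4 or day 5 was taken for each gene. One that was low on day 4 thus entered only through a high day 5, and one that stayed low was left out. The share of late risers with the same direction is in part set by this choice. Of the late risers described above, no other probe set of Zfp711, Fbln2, Cdh5, Lgr5, Sox7, Ikzf1, Acta2, Nid1, Dlk1, Myl4 or Loxl1 passed background on these days. Of 81 late risers with one above background, 77 had the same direction there (95.1%) and 37 passed 2-fold (45.7%). Of 35 late fallers 33 had the same direction (94.3%) and 18 passed 2-fold (51.4%). Over all 5081 genes with such a probe set the shares were 71.1% and 2.89%. In both groups the level from day 3 to day 4 was also kept by part of these probe sets, so that 32 of the 81 and 16 of the 35 met the full definition again. The exceptions in direction were the risers Cobll1, Prokr1, Rbms2 and Tdo2 and the fallers Arhgef18 and Klf5. When every other probe set above background was counted, 10 of the 81 risers and 2 of the 35 fallers had at least 1 that moved the other way. These probe sets share their RNA and array with the first, so they bear on the probes and not on the spread between cultures.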

How the data were processed

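RNA from A2.miR200c ESCs differentiated as EBs was isolated with the Qiagen RNeasy kit and hybridised as biotinylated cRNA to Affymetrix MOE430 2.0 arrays, 1 per treatment and day. The deposited values are linear intensity values that the authors normalised and modelled in dChip, with 1 value for each of 45037 probe sets; background handling within dChip and scan batches are not given in the sources used here. Probe sets were named through the platform annotation: 34945 had 1 symbol, 932 several and 9160 none. Each of 18193 genes was represented by its brightest single-symbol probe set (mean of the 6 arrays), and 9997 were kept because at least 1 array reached 80.1, the median of the gene values. Changes are differences of log2(intensity + 50), which understates the change of low genes. Array medians over probe sets lay between 34.5 and 36.9, and 48.8% to 50.1% of probe sets were above background. With 1 array per group no test was run; the number of arrays limits the precision. Members, lists and limits were chosen with earlier results of these data known. Named were the 15 largest late risers and fallers with an intensity of at least 100 on day 5 or day 4, up to 4 members with the largest change and each late member of every list, genes beside each limit, and genes the study discusses. Genes outside this rule (Actb, Aplnr, Arhgef18, Bmp4, Cobll1, Col1a2, Col4a1, Ctla2b, Eomes, Gata1, Has2, Hba-a2, Hba-x, Hbb-y, Ifitm1, Itga2b, Itga8, Krt8, Krt18, Lmo2, Mixl1, Pdpn, Pmepa1, Prokr1, Rbms2, Smtn, Sp5, Tagln, Tfap2c, Xist and the absent cell type markers) were named after their values were seen. Summed marker intensities are over list genes with a probe set. Promoters came from RefSeq (GRCm38.p6). Alternatives changed the added constant, filter, normalisation, floor, probe set rule and limits. The scripts were tested on simulated data. Python 3.11.15, numpy 2.4.6, pandas 2.3.3 and matplotlib 3.10.9 were used.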

Additional observations from a re-analysis of the deposited data

How the results depend on the processing

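The counts moved with the limits themselves, the way probe sets were combined and, for falling genes, the added constant. The 294 genes at least 2-fold higher became 718 with a fold limit of 1.5, 108 with 3, and 188 when all probe sets of a gene were averaged. The 200 genes lower became 624, 57 and 133 under the same settings, 323 with 16 added to the intensity in place of 50, and 132 with 100 added. The 171 late risers became 474 with a fold limit of 1.5, 57 with 3, 111 with averaged probe sets (96 of them among the 171), and 100 with an early limit of 0.25. The 84 late fallers became 354, 20 and 40 with these limits, 143 with an early limit of 1, and 53 with 100 added. With 16 added, 36 late risers counted as steady or turning instead. The other alternatives (no filter, a filter over the untreated arrays, quantile normalization, median centring, values under background set to it, and the probe set highest over the untreated arrays) left these 4 counts within 1.5 times. Of 218 named genes, none with a late step of at least 1 in size changed sign under any alternative. Sign changes of smaller late steps were not counted. With averaged probe sets 51 of the 218 moved beyond the limit used for single values. Without the filter on low values the medians of 5 of 47 lists changed sign, those of feeder fibroblast genes (to -0.004), platelet and megakaryocyte genes (to -0.02), blood surface and signalling genes (0.74 to -0.08), laminins and integrins (0.04 to -0.12) and the TGF-beta pathway (-0.07 to 0.03). No paired analysis was possible because each group holds 1 array. With 1 array per day, signal near background limits the sizes of change, and the spread between cultures is not known.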

Other observations

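Genes that turned at day 4 were left out of the late risers and late fallers. Of the 39 that rose and then fell at least 2-fold, Apln (apelin), the ligand of Aplnr, measured 151, 1538 and 200.5 on days 3, 4 and 5, Fgf5 1265, 2746 and 499, Fgf8 259, 1066 and 283, and Fst (follistatin), which binds activin, 1955, 7428 and 2227. The streak factors Mixl1 (109.7, 3606 and 1714) and Gsc (13.6, 605 and 180.5) and the Wnt target Sp5 (98.02, 1955 and 627) followed the same course, as did Igfbp3 (443, 1603 and 389) and the ERK phosphatase gene Dusp6 (1988, 3093 and 776). The receptor gene Aplnr did not turn with its ligand, and measured 19.6, 3089 and 6124. Of the 17 that fell and then rose, Fgf15 measured 324, 107 and 829.6, the Wnt receptor gene Fzd4 133, 78.3 and 601, and the cell cycle inhibitor gene Cdkn1c 1939, 1066 and 3933.

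Probe sets without a usable gene name held a smaller share of late risers than the named genes (1.71%) and a similar share of late fallers (0.84% of named genes). These measures are unlike, since a named gene counts once, by its brightest probe set, whereas here every probe set counts. Of 1444 probe sets above the filter with no symbol 12 rose late (0.831%) and 12 fell late (0.831%). Of 504 with several symbols 5 rose late (0.992%) and 4 fell late (0.794%), with a largest late step of 3.97.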
